A study of Mus musculus with 6 samples.

Results

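The transcriptional coactivators YAP and TAZ, the 4 TEAD transcription factors and 4 of their widely used target genes were compared between dedifferentiated fat (DFAT) cells and mature adipocytes (AC). The members were the 10 mouse genes Yap1, Wwtr1 (which encodes TAZ), Tead1, Tead2, Tead3, Tead4, Ankrd1, Ccn2, Ccn1 and Amotl2, out of 18193 genes with a probe set of their own. A probe set is the group of short probes that reads 1 transcript on the array, and the 10 genes had 19 of the 45037 probe sets examined, each annotated with 1 gene symbol. The genes were chosen in part on the DFAT and AC values themselves, because Ankrd1 had one of the largest differences, so the values of the 10 genes are a description. No p-value is given for them. Counts of members past a threshold or without overlap are shown beside shares or counts over all genes or probe sets.

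The data were 3 arrays of DFAT cells and 3 arrays of AC, all mouse, hybridized with labelled material prepared from total RNA. DFAT cells were adipocytes that lost their fat-cell form in ceiling culture, in which floating fat cells attach to the upper surface of a filled flask, and were then grown to semiconfluence. The study's methods describe DFAT as a cell line established from GFP transgenic mice, so the 3 DFAT arrays may represent 1 line. AC were primary adipocytes isolated from fat tissue, and neither the labels nor the methods give their mouse strain, their age or the GFP transgene. No source states whether replicate arrays represent distinct mice or dishes, so the spread between arrays may be technical, and p-values measure only that spread. Cultured, dividing cells were thus set against freshly isolated cells, and culture and dedifferentiation cannot be told apart in this design.

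YAP and TAZ carry no DNA-binding domain and act on genes through the TEAD factors, which bind DNA. The Hippo pathway, a kinase cascade in which the MST kinases activate the LATS kinases, phosphorylates YAP and TAZ and keeps them in the cytoplasm, while stretched cells, stiff substrates and low cell density favour their entry into the nucleus. Much of this control acts on the proteins, and arrays read only RNA. In the fat lineage TAZ is known as a partner that restrains the adipogenic receptor PPARγ, and YAP and TAZ activity is known to oppose fat-cell differentiation.

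The TEAD factors recognise the sequence CATTCC, and the promoter windows of 3 target genes are shown because they hold it. Each window runs from 250 bases before the transcription start to 50 bases after it, 300 bases in all, taken from RefSeq on GRCm38.p6 and written 5′ to 3′ on the gene's strand, with CATTCC or its reverse complement GGAATG in capitals. The Ankrd1 window lies at chr19:36119795-36120094 on the minus strand, the Ccn1 window at chr3:145649936-145650235 on the minus strand and the Amotl2 window at chr9:102717554-102717853 on the plus strand.
Ankrd1: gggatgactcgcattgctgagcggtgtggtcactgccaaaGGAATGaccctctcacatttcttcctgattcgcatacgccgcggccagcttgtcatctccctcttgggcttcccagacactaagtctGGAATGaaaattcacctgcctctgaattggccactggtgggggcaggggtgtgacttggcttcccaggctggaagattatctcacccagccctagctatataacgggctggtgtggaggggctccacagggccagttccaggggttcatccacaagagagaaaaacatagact
Ccn1: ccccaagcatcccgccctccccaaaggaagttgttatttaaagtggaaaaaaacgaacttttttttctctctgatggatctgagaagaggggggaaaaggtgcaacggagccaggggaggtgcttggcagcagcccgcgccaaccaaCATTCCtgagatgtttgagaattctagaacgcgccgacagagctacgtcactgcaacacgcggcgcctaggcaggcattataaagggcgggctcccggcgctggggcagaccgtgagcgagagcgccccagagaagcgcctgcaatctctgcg
Amotl2: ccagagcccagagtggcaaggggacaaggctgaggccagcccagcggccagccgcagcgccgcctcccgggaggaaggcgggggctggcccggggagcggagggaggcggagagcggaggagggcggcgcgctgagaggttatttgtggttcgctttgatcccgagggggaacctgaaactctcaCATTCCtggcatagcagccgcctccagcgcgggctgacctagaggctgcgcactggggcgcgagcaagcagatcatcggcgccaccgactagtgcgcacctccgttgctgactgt

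The Ankrd1 window held 2 copies as GGAATG, at 210 to 205 and at 123 to 118 bases before the start. Ccn1 held 1 copy as CATTCC, 103 to 98 bases before the start, and the TATA-box letters TATAAA 25 to 20 bases before it. Amotl2 held 1 copy as CATTCC, 65 to 60 bases before its start. Of the 7 members with a window, 6 held the motif on either strand, namely Yap1, Wwtr1, Tead3, Ankrd1, Ccn1 and Amotl2, and Tead2 did not. Yap1 held it 141 to 136 bases before its start, and in Wwtr1 the same copy lay in the windows of both annotated starts. Tead3 had 3 annotated starts, and 1 of their windows held 3 copies. Tead1, Tead4 and Ccn2 had no window in the table used.

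By comparison, 4817 of 32851 promoter windows of the mouse genome (14.7%) held at least 1 copy and 1.36% held 2 or more, and 16.6% of 27025 genes held it in at least 1 window. It was present in 10 of 33 further Hippo pathway genes (30.3%) and in 4 of 24 further target genes (16.7%). The AP-1 motif TGACTCA, searched on both strands, was in none of the member windows and in 5.20% of all windows, TATAAA was in 13.6% of all windows, and the CArG box bound by SRF was also in none and in 1.63% of all windows. A match shows that the letters are there and does not show that a factor binds them. The map of motif positions places the copies in the member windows.

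**Figure D1:**
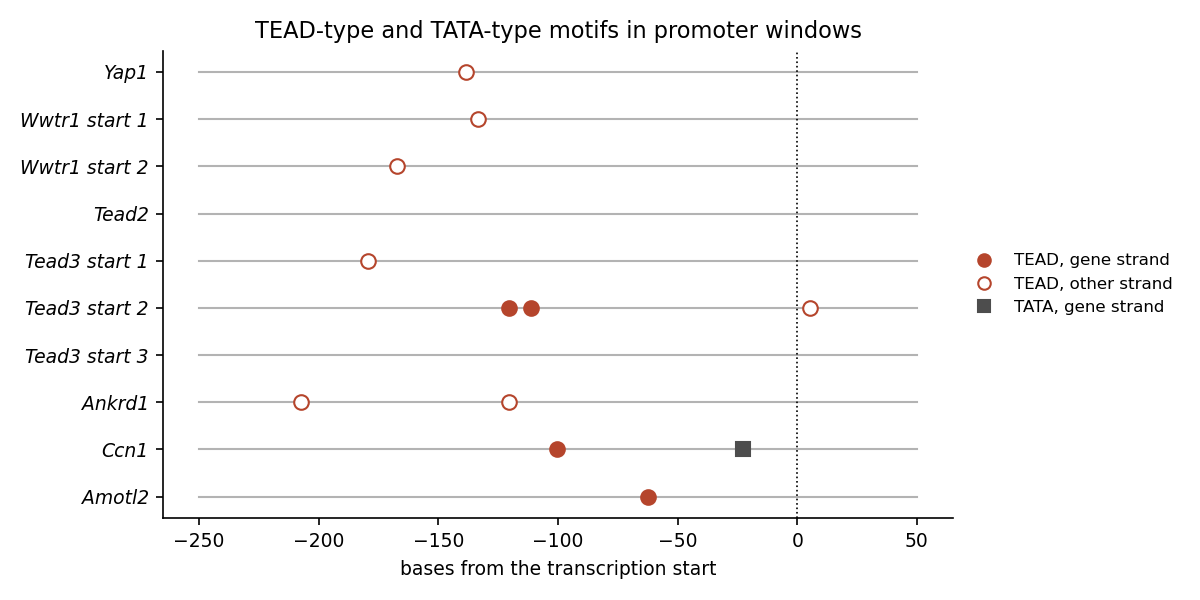
Positions of the TEAD-type motif (circles, filled on the gene strand, open on the other strand) and of the TATA-type motif (square) in the promoter windows of the 7 members that had one, in bases from the transcription start. Ankrd1 has 2 copies, Ccn1 and Amotl2 have 1 each, and Tead2 has none.

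The values are log2 RMA values, normalized by the authors, in which a difference of 1 is a doubling. RMA gives no detection call, so a background level was set on each array as the 95th percentile of 97 probe sets of 69 sensory, lens, retina and sperm genes. This level was 5.82, 5.64 and 5.66 on the DFAT arrays and 5.65, 5.68 and 5.85 on the AC arrays. The 99th percentile was higher, at 6.13, 6.01 and 5.95 on the DFAT arrays and 6.41, 6.62 and 6.90 on the AC arrays. Bounds set with it would be smaller. The DFAT arrays correlated with each other at 0.995 to 0.996 over all probe sets, whereas AC replicate 1 correlated with AC replicates 2 and 3 at 0.971 and 0.969, below the 0.991 between those 2 arrays. AC replicate 1 therefore stood apart, and results that rest on it are given with and without it.

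The labelled cell types were checked against marker genes. All 18 adipocyte marker genes measured were lower in DFAT cells, 10 of them at background there, with marker means of 6.38 to 6.42 on the DFAT arrays and 12.73 to 12.90 on the AC arrays. Genes of other cell types were also present on the AC arrays. The 17 endothelial markers averaged 4.42 to 4.43 on the DFAT arrays, with 13 at background on all 3, against 9.71 on AC replicate 1 and 7.96 and 7.83 on AC replicates 2 and 3. The 17 macrophage markers averaged 4.52 to 4.60 on the DFAT arrays, 13 of them at background, against 6.32, 7.94 and 8.01 on AC replicates 1 to 3. The 15 epithelial and mammary markers averaged 4.50 to 4.64 on the DFAT arrays, 11 of them at background, against 9.30, 8.63 and 8.56 on the AC arrays. Of 9 mural cell markers 2 were higher and 7 lower in DFAT cells, with means of 6.44 to 6.48 on the DFAT arrays and 8.61, 8.12 and 8.25 on the AC arrays. Of 10 stromal markers 4 were higher and 4 lower, with means of 8.52 to 8.59 on the DFAT arrays and 9.36, 9.80 and 9.71 on the AC arrays. Part of every AC value can come from such cells, and their part in the results was not tested. In bulk RNA, fewer cells of a type and less RNA per cell cannot be told apart.

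Across all 45037 probe sets, 9152 had higher and 8133 had lower values in DFAT cells by limma at an adjusted p of 0.05. With each gene represented by its probe set of highest mean, 22.6% of the 18193 genes passed the test as higher and 23.8% as lower. On 27.5% of the genes every DFAT value was above every AC value, and on 32.5% every DFAT value was below. Of the 10 members, 5 passed the test as higher (Tead1, Tead2, Tead4, Ankrd1 and Ccn2), none passed as lower and 5 did not pass. The groups did not overlap for 9 members, 6 higher and 3 lower in DFAT cells. Since the choice of members used this comparison, nothing is read from these counts.

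**Figure D2:**
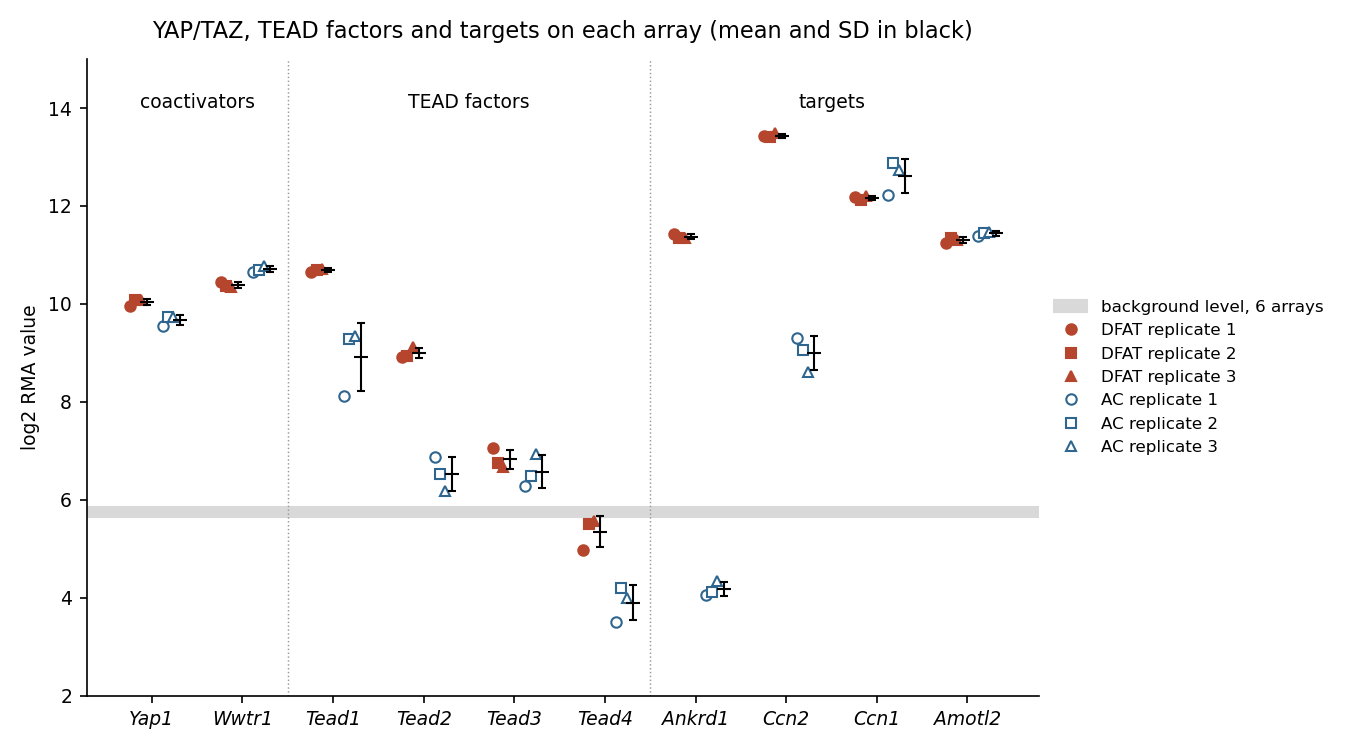
Log2 RMA values of the 10 genes, each by 1 probe set, on every array, with DFAT arrays as filled and AC arrays as open symbols, group means and SDs (n = 3) in black and the range of the background levels in grey. Ankrd1 lies near 11.4 in DFAT cells and below the background level in AC, and Ccn1 and Amotl2 lie slightly lower in DFAT cells than in AC, an order that turns for both when the arrays are centred on the hybridization controls.

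The 2 coactivators were well above background on every array and differed little between the groups. The Yap1 value was 9.96, 10.08 and 10.08 on the DFAT arrays and 9.54, 9.73 and 9.73 on the AC arrays. The groups did not overlap, and the means were 10.04 ± 0.07 in DFAT cells and 9.67 ± 0.11 in AC (SD, n = 3 each). The difference was 0.37 (SE 0.13), and it was -0.01 when the arrays were centred on reference genes, so its direction depends on the scaling. A further Yap1 probe set gave 7.67, 7.76 and 7.79 on the DFAT arrays and 6.93, 7.85 and 7.85 on the AC arrays. Here the groups overlapped, and the difference of 0.20 was -0.11 without AC replicate 1.

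Wwtr1, which encodes TAZ, was slightly lower in DFAT cells with all 3 of its probe sets as deposited, although the sign of the first turned to 0.14 when the arrays were centred on hybridization controls. Its first probe set gave 10.45, 10.36 and 10.35 on the DFAT arrays and 10.66, 10.69 and 10.78 on the AC arrays. No DFAT value reached an AC value, with means of 10.38 ± 0.06 in DFAT cells and 10.71 ± 0.06 in AC and a difference of -0.33 (SE 0.12). The other 2 probe sets differed by -0.60 and -0.48. On both of them AC replicate 1 was close to the DFAT arrays while AC replicates 2 and 3 were higher, and without AC replicate 1 the differences were -0.88 and -0.78.

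Among the TEAD factors, the DNA-binding partners of YAP and TAZ, the differences were unequal. Tead2, known for its expression in early embryos and neural precursors, was 8.93, 8.95 and 9.13 on the DFAT arrays and 6.88, 6.52 and 6.18 on the AC arrays. Every DFAT value was above every AC value and all 6 were above background, with means of 9.0 ± 0.11 in DFAT cells and 6.52 ± 0.35 in AC. On AC replicates 2 and 3 Tead2 lay below the 99th percentile of the background genes, 6.62 and 6.90 on those arrays. The difference of 2.47 (SE 0.19) corresponds to a 5.56-fold higher value in DFAT cells, and it ranged between 2.09 and 2.94 over the scalings tried.

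Tead1, a broadly expressed TEAD factor known for its role in heart and muscle, was 10.65, 10.70 and 10.72 on the DFAT arrays and 8.11, 9.29 and 9.34 on the AC arrays. The DFAT arrays were close together and all above the AC arrays, of which AC replicate 1 lay well below the other 2. The difference was 1.78 (SE 0.31), and 1.37 without AC replicate 1. A second Tead1 probe set gave 6.54, 6.87 and 6.62 on the DFAT arrays and 5.06, 5.53 and 5.62 on the AC arrays. All 3 AC values were at background, so the second probe set gives only a bound, at least 1.94-fold higher in DFAT cells. Bounds of this kind set the mean of the bright group against the mean, over the dim arrays, of the background level or the measured value, whichever was higher.

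Tead3 and Tead4 gave no clear difference. Tead3, a TEAD factor known from the placenta, was 7.05, 6.76 and 6.68 on the DFAT arrays and 6.29, 6.48 and 6.94 on the AC arrays. The groups overlapped, and the difference of 0.26 (SE 0.20) was -0.12 with the arrays centred on reference genes. Tead4, known for its role in the trophectoderm of the early embryo, was 4.98, 5.50 and 5.56 on the DFAT arrays and 3.50, 4.20 and 4.0 on the AC arrays. None of these 6 values was above the background level of its array, so the order of the groups is not a measured difference, although the unfloored values passed the test. The second Tead4 probe set was likewise not above background on any array, and its groups overlapped.

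The 4 target genes split into a pair with large differences and a pair with small ones. Ankrd1, which encodes an ankyrin repeat protein of muscle sarcomeres and nuclei that is strongly induced by YAP and by stretch, was 11.43, 11.34 and 11.35 on the DFAT arrays and 4.07, 4.12 and 4.33 on the AC arrays. The AC values were all at background and the DFAT values all far above it. The means were 11.37 ± 0.05 in DFAT cells and 4.17 ± 0.14 in AC, and since AC gives only a limit, Ankrd1 was at least 50.1-fold higher in DFAT cells, a log2 difference of at least 5.65. Its second probe set was 11.27, 11.20 and 11.14 on the DFAT arrays and 4.30, 4.03 and 3.76 on the AC arrays. That probe set was again at background in AC and gave a value at least 44.5-fold higher in DFAT cells.

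Ccn2, which encodes the secreted matricellular protein known as connective tissue growth factor, was 13.42, 13.40 and 13.48 on the DFAT arrays and 9.30, 9.06 and 8.61 on the AC arrays. All 6 values were above background and the groups lay far apart. The means were 13.44 ± 0.04 in DFAT cells and 8.99 ± 0.35 in AC, and the difference of 4.44 (SE 0.19) corresponds to a 21.7-fold higher value in DFAT cells. It lay between 4.06 and 4.91 over the scalings and between 4.25 and 4.60 with any 1 array left out.

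Ccn1, which encodes the related secreted protein CYR61, is also a classical YAP target and did not share this difference. Its first probe set was 12.18, 12.13 and 12.21 on the DFAT arrays and 12.22, 12.88 and 12.73 on the AC arrays. The groups did not overlap, though AC replicate 1 lay close to the DFAT arrays, and the difference of -0.44 (SE 0.19) was 0.02 with the arrays centred on hybridization controls. The 4 probe sets of Ccn1 did not give 1 picture of AC replicate 1. On 2 of them it was the lowest AC array. On the other 2 it was the highest, at 10.91 against 8.90 and 9.01 on AC replicates 2 and 3 with one of them, and at 10.55 against 8.54 and 8.55 with the other. The DFAT values of these last 2 probe sets were 9.33 to 9.39 and 8.98 to 9.12. Their differences were -0.24 and -0.18 with all arrays and 0.41 and 0.49 without AC replicate 1, so their sign rests on that array.

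Amotl2, a YAP target whose angiomotin-family protein in turn binds and restrains YAP, was 11.24, 11.35 and 11.31 on the DFAT arrays and 11.39, 11.45 and 11.48 on the AC arrays. Every DFAT value was below every AC value, by little. The difference was -0.14 (SE 0.12, 95% interval -0.42 to 0.14), and 0.32 with the arrays centred on hybridization controls.

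**Figure D3:**
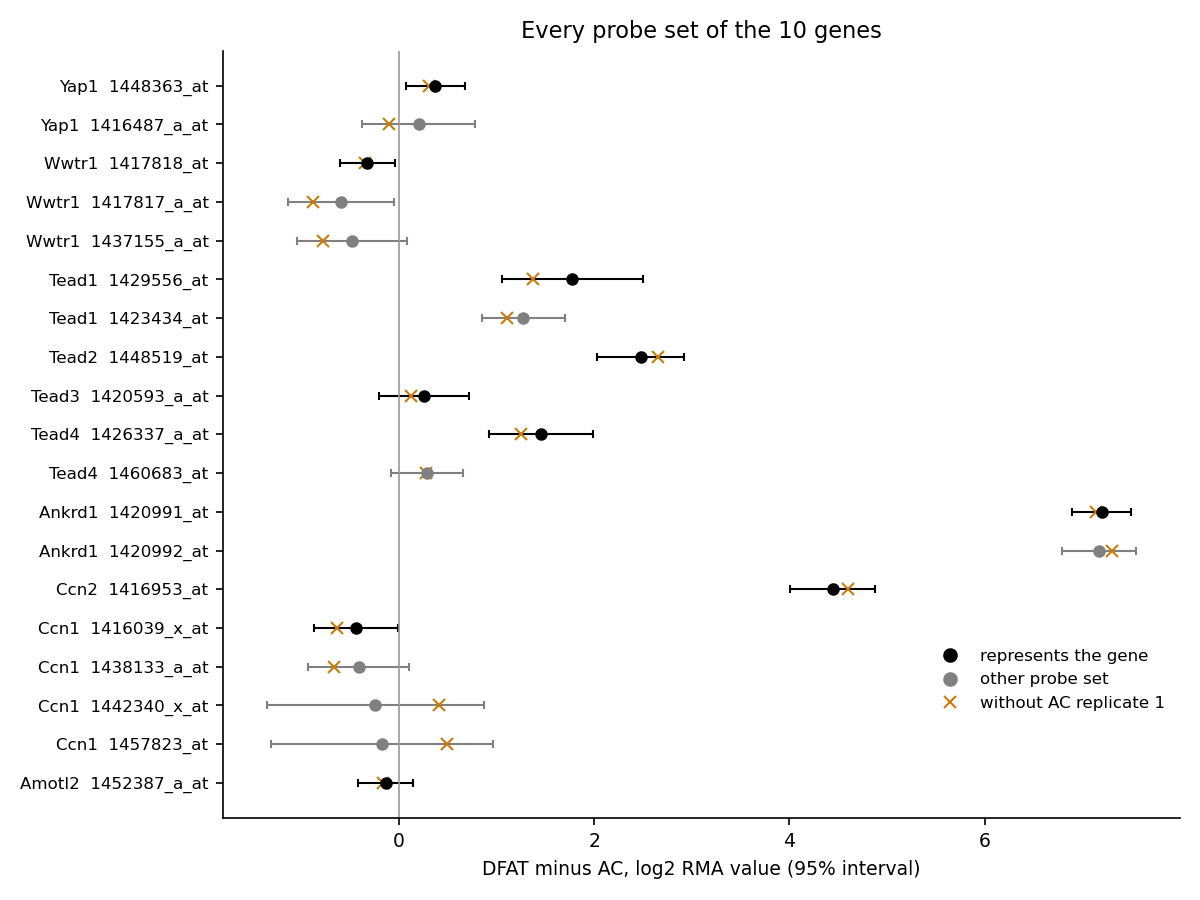
Difference between DFAT cells and AC (log2 RMA value, DFAT minus AC) with its 95% interval for all 19 probe sets of the 10 genes, with crosses for the difference without AC replicate 1. Both Ankrd1 probe sets lie farthest to the right, with AC values at background so that their plotted differences are not exact, and 2 of the 4 Ccn1 probe sets change sign without AC replicate 1.

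Over the 19 probe sets, the groups did not overlap on 8 with DFAT cells higher and on 4 with DFAT cells lower, and 7 overlapped. By 1 probe set per gene, the shares of all genes without overlap were 27.5% higher and 32.5% lower. Nothing is read from the member counts. The arrays of AC varied more than those of DFAT cells for 9 of the 10 members. Over all probe sets, too, the AC arrays correlated less closely with each other (0.969 to 0.991) than the DFAT arrays (0.995 to 0.996). The largest range between DFAT arrays was 0.58, for Tead4, and the largest between AC arrays was 1.23, for Tead1. AC replicate 1 was the lowest AC array for 8 members and the highest for 2. Neither count was made over all genes, so nothing particular to the members is read from them. The endothelial marker mean was highest and the macrophage marker mean lowest on the same array, and the part of these cells in the members' values was not tested.

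The scaling of the arrays mattered for the small differences and not for the direction of the large ones. The median difference of all genes was -0.10 as deposited, -0.48 with the arrays centred on 11 reference genes and 0.36 with the arrays centred on 18 hybridization control probe sets. Of the reference genes, 6 were higher and 2 lower in DFAT cells, so they are not a neutral ruler. Over the scalings Ccn2 lay between 4.06 and 4.91, Tead2 between 2.09 and 2.94 and Tead1 between 1.40 and 2.24. Ankrd1 was higher in DFAT cells under each of them, but with AC at background its size is known only as the bound above. Yap1, Wwtr1, Tead3, Ccn1 and Amotl2 each changed sign under at least 1 of these scalings.

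**Figure D4:**
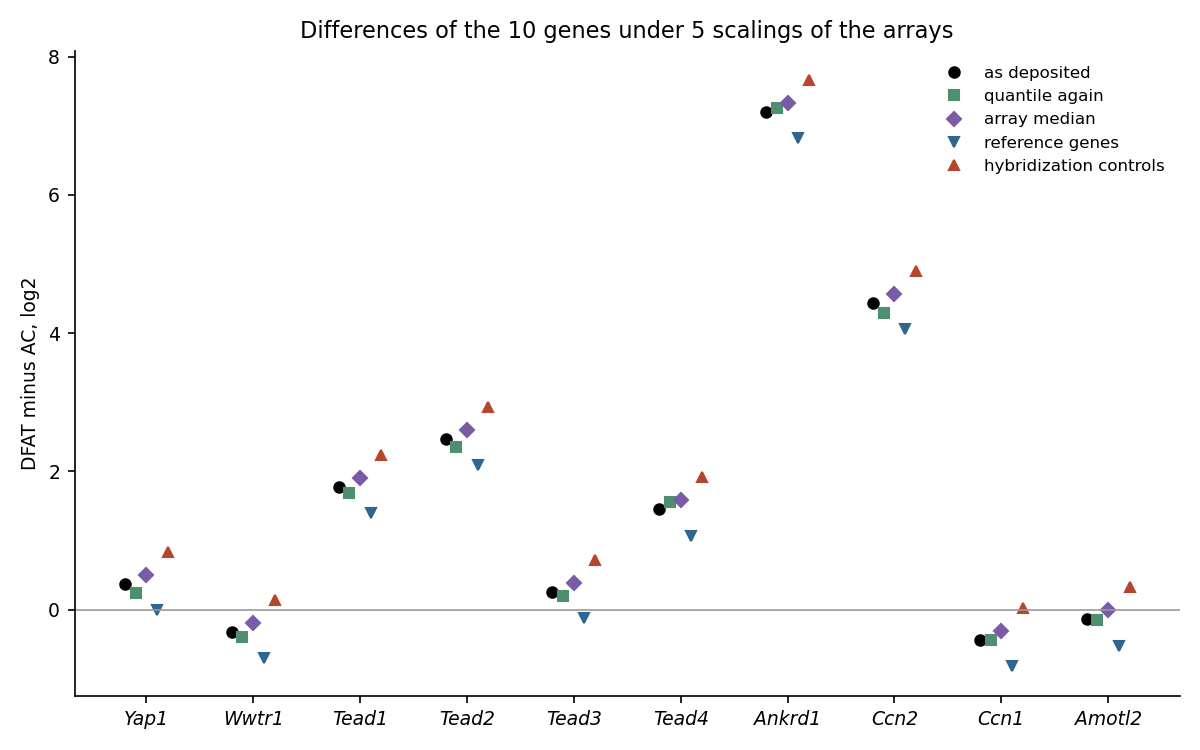
Difference between DFAT cells and AC (log2, DFAT minus AC) of each of the 10 genes under 5 scalings of the same arrays. Ankrd1, Ccn2, Tead1, Tead2 and Tead4 keep a positive sign under all 5, Tead4 with both groups and Ankrd1 with AC at background, and the other 5 genes lie on both sides of 0.

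The other genes of the Hippo pathway were taken as a list of kinases, adaptors, junction and polarity genes that act on YAP and TAZ, of which 38 of 45 entries were measured. Of these, 13 were higher (34.2%, against 22.6% of all genes), 8 were lower (21.1%, against 23.8%) and 17 did not pass the limma test. The list's median difference was 0.33, and 0.18 without AC replicate 1, beside -0.10 for all genes. AC replicate 1 was the lowest AC array for 22 of the 38 genes. Like the members, the list was chosen with earlier results of these data known, so its counts describe it and show nothing particular to it.

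Both LATS kinases, which phosphorylate YAP and TAZ, were higher in DFAT cells. Lats1 was 10.21, 10.13 and 10.21 on the DFAT arrays and 8.78, 9.19 and 9.20 on the AC arrays, a difference of 1.12 (SE 0.15, limma adjusted p = 0.00069). Lats2, itself known as a YAP target, was 8.41, 8.38 and 8.51 on the DFAT arrays and 7.16, 7.48 and 7.65 on the AC arrays, a difference of 1.01 (SE 0.16, limma adjusted p = 0.0014). Every DFAT value was above every AC value for both kinases with these probe sets. Of the 6 Lats2 probe sets, 4 were called higher and 2 did not pass, and the mean over them gave 0.79. The upstream MST kinase Stk4 and its scaffold Sav1 were not past the threshold with the probe sets that stood for them, at 0.14 and 0.41, although 1 of the 3 Stk4 probe sets, at background in AC, was called higher.

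The 6 largest differences among the genes called higher were the following. The junctional scaffold Dlg5 was higher by 3.30, with 2 of its 3 probe sets past the test and a mean over the probe sets of 1.87. The atypical cadherin Fat1 was higher by 2.88, the LIM protein Ajuba, which binds LATS kinases, by 2.65, the FERM protein Frmd6 by 1.91, the polarity scaffold Scrib by 1.62 and the kinase Taok3 by 1.29. All 6 were above background on every DFAT array, and their groups did not overlap.

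Nf2, which encodes merlin, an upstream activator of the cascade, was lower in DFAT cells, at 7.89, 7.97 and 7.99 on the DFAT arrays and 8.58, 8.50 and 8.56 on the AC arrays. The difference was -0.59 (SE 0.12, limma adjusted p = 0.0055), but -0.11 and not past the test as the mean over its probe sets. The Crumbs polarity protein Crb3 was lower by a difference of -1.25. The tight junction protein Tjp1, at 9.0, 9.07 and 9.01 on the DFAT arrays and 10.85, 9.57 and 9.67 on the AC arrays, had a difference of -1.0 with all arrays and -0.59 without AC replicate 1, on which the endothelial markers were also highest. Its adjusted p of 0.0378 was between 0.0914 and 0.109 when any 1 DFAT array was left out.

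The other genes called lower with the largest differences were near the background level. The cadherins Fat4 and Dchs1, a receptor and ligand pair, were at background on all DFAT arrays and above it on 1 AC array each, and Rassf2, which binds MST kinases, was at background on all DFAT arrays and above it on 2 AC arrays. The Crumbs-complex scaffold Patj was at background on all 6 arrays, so its call is not a measured difference.

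**Figure D5:**
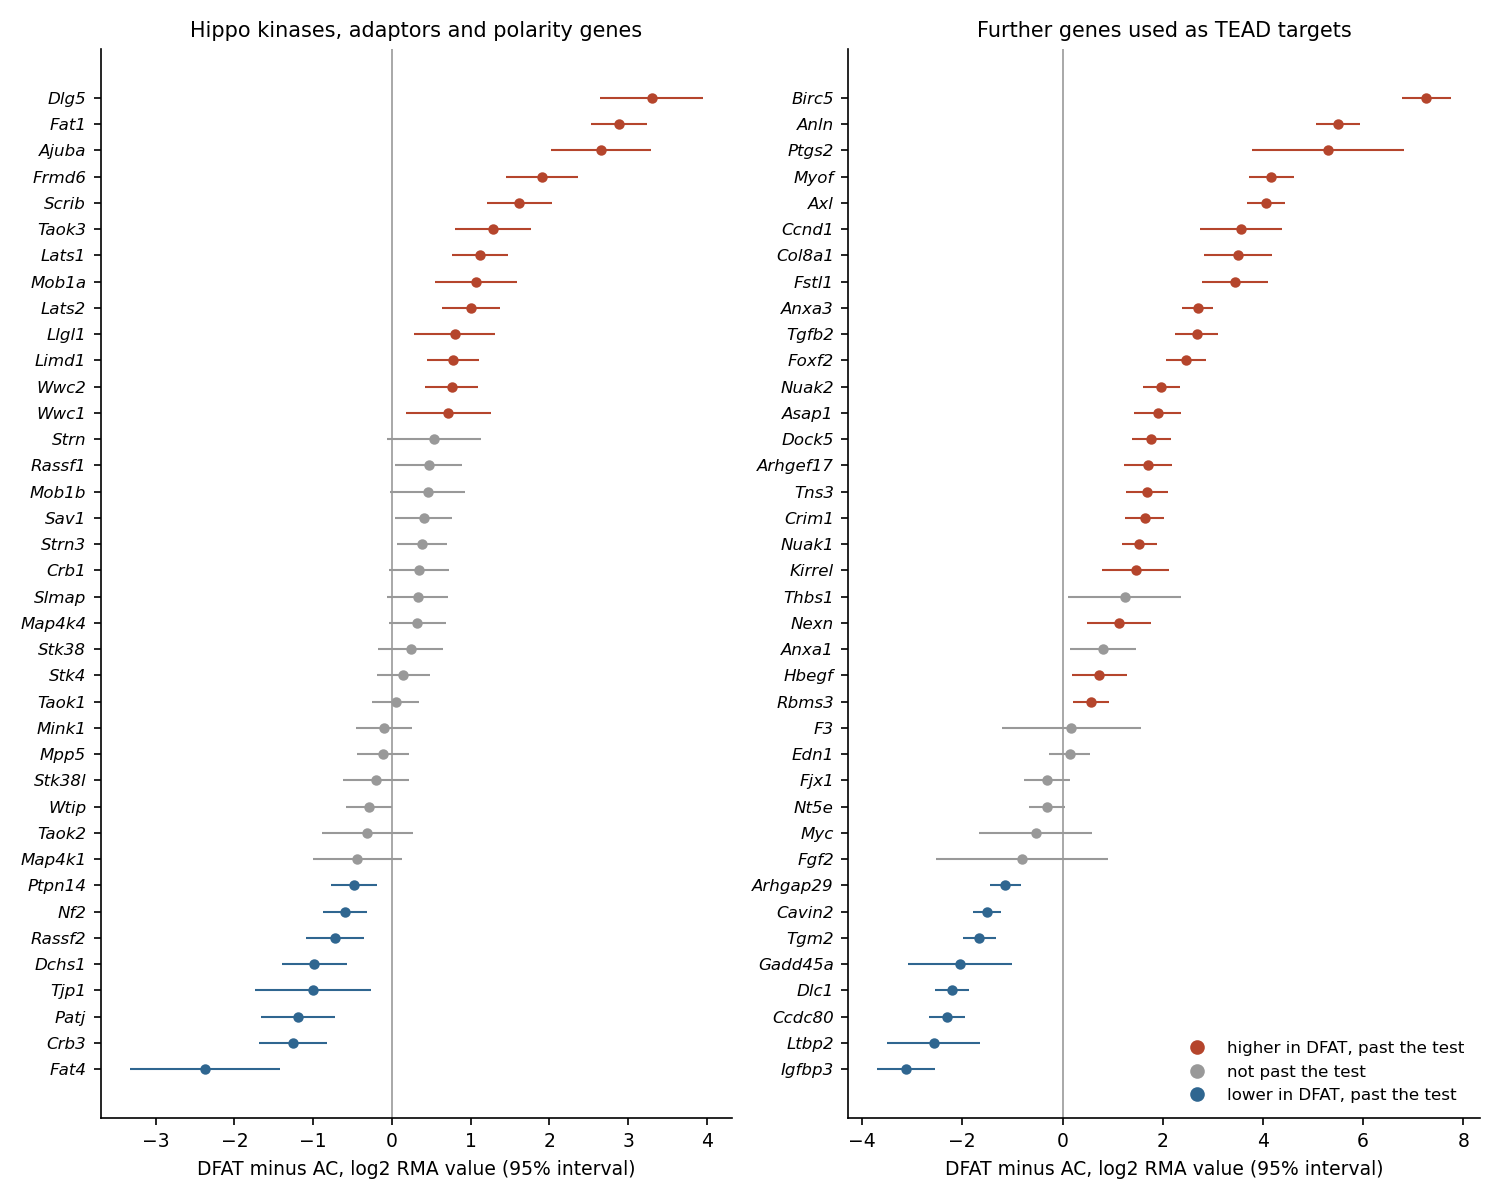
Difference between DFAT cells and AC (log2 RMA value, DFAT minus AC) with its 95% interval (not exact where a group is at background) for 38 Hippo pathway genes (left) and 38 further genes used as TEAD targets (right), coloured by the limma test at an adjusted p of 0.05. In the left panel 13 genes are higher and 8 lower in DFAT cells, and in the right panel 22 are higher and 8 lower.

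The vestigial-like proteins bind the TEAD factors, as YAP and TAZ do. Vgll3 was 10.89, 10.65 and 10.82 on the DFAT arrays and 6.63, 9.47 and 9.27 on the AC arrays. The DFAT arrays were all higher, but AC replicate 1 lay far below the other AC arrays. The difference was 2.33 (SE 0.67, limma adjusted p = 0.0257) and 1.42 without AC replicate 1, and the adjusted p was between 0.0638 and 0.0844 when any 1 DFAT array was left out. Vgll4, a known repressor of TEAD activity, was 8.36, 8.32 and 8.43 on the DFAT arrays and 9.42, 9.21 and 8.92 on the AC arrays. The groups did not overlap, with a difference of -0.82 (SE 0.16, limma adjusted p = 0.0044), which was -0.35 and not past the test with the arrays centred on hybridization controls. Vgll1 and Vgll2 were at background on every array.

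The relatives of the members did not follow them as families. Ccn4, a secreted protein of the same family as Ccn1 and Ccn2, was 11.11, 11.23 and 11.22 on the DFAT arrays and 5.55, 4.84 and 6.0 on the AC arrays (limma adjusted p = 1.9e-06). Only 1 of the AC values was above background, and with values floored at background the difference was 5.41. Ccn5, also a secreted member of that family, was 8.96, 9.07 and 8.92 on the DFAT arrays and 6.44, 8.77 and 8.67 on the AC arrays, and its difference of 1.02 did not pass the test and was 0.26 without AC replicate 1. Ccn3 and Ccn6 were at background on all arrays. Ccn3 was nevertheless called lower (limma adjusted p = 0.0415), which is not a measured difference, and the call was lost in 10 of 15 alternative settings.

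Of the angiomotins, which bind YAP at junctions, Amot was 9.72, 9.56 and 9.54 on the DFAT arrays and 6.54, 6.54 and 6.34 on the AC arrays, a difference of 3.14 (SE 0.13, limma adjusted p = 1.1e-06). Only 1 of its 3 probe sets passed the test. The other 2 were at background on all arrays, so their differences of 0.15 each are not measured ones. Amotl1 was lower, with a difference of -0.55 (SE 0.14, limma adjusted p = 0.0133). It did not pass the test with the arrays centred on hybridization controls (-0.09) or without DFAT replicate 2 or 3 (-0.55 and -0.52). A second Amotl1 probe set was also called lower (-0.68, limma adjusted p = 0.0039), and the third was at background on all arrays. Of the relatives of Ankrd1, which are muscle ankyrin repeat proteins, Ankrd2 was at background on all arrays and Ankrd23 on all DFAT arrays and 1 AC array. The call for Ankrd23 (limma adjusted p = 0.0465) was lost in 11 of 15 alternative settings.

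A list of 40 further genes widely used as TEAD targets had 38 measured. Of these, 22 were higher (57.9%, against 22.6% of all genes), 8 were lower (21.1%, against 23.8%) and 8 did not pass the limma test. The median difference was 1.35, and 0.94 without AC replicate 1, beside -0.10 for all genes. AC replicate 1 was the lowest AC array for 28 of the 38. This list was written with results of these data known, so the counts describe it and show nothing particular to it.

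The largest increases in this list included genes of cell division. Birc5, which encodes the mitotic protein survivin, was 10.88, 11.07 and 11.06 on the DFAT arrays and 3.33, 3.74 and 4.16 on the AC arrays, where it was at background, so it was at least 38.8-fold higher in DFAT cells (limma adjusted p = 2.0e-07). Anln, which encodes the cytokinesis protein anillin, was above background on only 1 AC array and was higher by 5.29 with values floored at background. Ccnd1, which encodes cyclin D1, was higher by 3.56. The other 3 named increases were not in division genes. Ptgs2, which encodes the prostaglandin-forming enzyme COX-2, was 11.25, 11.20 and 11.14 on the DFAT arrays and 4.12, 7.03 and 6.55 on the AC arrays, higher by 5.29 with all arrays and by 4.40 without AC replicate 1. Myof, a membrane repair protein, was higher by 4.17, and Axl, a receptor tyrosine kinase often used to read out YAP, was 11.72, 11.83 and 11.88 on the DFAT arrays and 7.44, 7.89 and 7.89 on the AC arrays, a difference of 4.07 (SE 0.16, limma adjusted p = 7.9e-07). For Myof and Axl 1 of 2 probe sets passed the test and the other was at background on all arrays, and as means over the probe sets the differences were 1.97 and 2.03.

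The genes lower in DFAT cells were led by Igfbp3, which encodes an IGF-binding protein. It was at background on the DFAT arrays at 4.42, 4.65 and 4.92 and was 7.36, 8.29 and 7.70 on the AC arrays, so it was at least 4.22-fold lower in DFAT cells (limma adjusted p = 3.4e-05). Ltbp2, a matrix protein, was also at background on all DFAT arrays and above it on 2 AC arrays, and its call was lost with values floored at background (-0.78, limma adjusted p = 0.119, against -2.57). The matrix protein Ccdc80 had a difference of -2.30, the RhoGAP Dlc1 of -2.21, the stress response gene Gadd45a of -2.05 and the transglutaminase Tgm2 of -1.66. For these 4, all 6 arrays were above background and the groups did not overlap. Without AC replicate 1 the Gadd45a difference was -2.64, and by the methods' t-test with all arrays its call was lost (adjusted p = 0.0785).

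SRF, the transcription factor with its actin-regulated MRTF partners, shares targets with YAP, and 9 of the 10 genes of a list of SRF partners and targets were higher in DFAT cells (90%, against 22.6% of all genes), with a median difference of 2.55 beside -0.10 for all genes. The list includes the 2 mural cell markers that were higher in DFAT cells, and it too was written with results of these data known. The exception was Mrtfb, with a difference of 0.64 that did not pass the test. Srf was 8.93, 9.01 and 9.15 on the DFAT arrays and 8.37, 8.32 and 8.59 on the AC arrays, a difference of 0.61 (SE 0.14, limma adjusted p = 0.0098) that was 0.23 and did not pass with the arrays centred on reference genes and was 0.55 and did not pass without DFAT replicate 3.

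The genes whose pattern over the 6 arrays, centred on its own mean, was nearest to that of Ankrd1 were Birc5, Bub1, Hs6st2, Cdh2 and Pclaf, with root mean square differences of 0.19, 0.26, 0.33, 0.33 and 0.33 on the log2 scale. Birc5, the mitotic checkpoint kinase Bub1 and the PCNA-associated factor Pclaf act in dividing cells, while Hs6st2 is a heparan sulfate sulfotransferase and Cdh2 is N-cadherin. For Yap1 they were Cdca7l, Aida, Vcp, Mlec and Hdac1, with root mean square differences of 0.019, 0.029, 0.032, 0.032 and 0.035. With 3 arrays against 3, likeness of this kind is set mostly by the size of the group difference. Ankrd1 and its 5 nearest genes were at background on every AC array, so their likeness rests in part on AC values that were not measured.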

How the data were processed

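Total RNA from 3 DFAT and 3 AC samples was measured on Affymetrix GeneChip Mouse Genome arrays. The deposited values are log2 values that the authors produced with RMA, which corrects background, brings arrays to 1 distribution and summarizes probes; its version and which arrays were normalized together are not given in the sources used here. Equal distributions can hide a general shift between the groups. Of 45101 probe sets, 64 controls were left out. Gene symbols came from the platform annotation, in which 34945 probe sets had 1 symbol, 932 several and 9160 none. Only those with 1 symbol were named.

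limma 3.58.1 (R 4.3.3) with lmFit and eBayes, without covariates, compared the groups over 45037 probe sets, with Benjamini-Hochberg adjustment over all of them and a threshold of 0.05. The script was tested on simulated data. The probe set of highest mean stood for its gene. Named were all members, every cofactor and relative, Lats1, Lats2, Nf2 and Srf, up to 6 genes in each direction with the largest differences in the Hippo and target lists, and the 5 profiles nearest to Ankrd1 and to Yap1. Stk4, Sav1 and Mrtfb were named after their values were seen. The members and lists were chosen with earlier results of these data known. The alternatives were renormalization, 3 centrings, a floor or filter at background, other variance models, the mean over probe sets, the methods' t-test, a replicate block and leaving out each array. The study names that t-test for its data in general and judged its arrays by fold change and detection calls. The adjustment of its p-values was added here. The number of arrays limits the precision. Protein sequences were not used here.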

Additional observations from a re-analysis of the deposited data

How the results depend on the processing

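Over 16 alternative settings, the differences of Ankrd1, Ccn2, Tead1 and Tead2 stayed positive. Tead4 was -0.020 with values floored at background. The count of member genes called lower was 0 as deposited, 1 after a second quantile normalization, with the floor, without dim probe sets, with trend and robust variances and by the methods' t-test, 3 with centring on reference genes, and between 0 and 2 with 1 array left out, with 2 without AC replicate 1. Hippo pathway genes called lower were 8 as deposited, 2 with centring on hybridization controls, 5 with the floor and 4 without dim probe sets. Of 45037 probe sets, 8133 were called lower as deposited, 20848 with centring on reference genes and 3405 with centring on hybridization controls. They numbered 7571 after a second quantile normalization, 5218 with the floor, 8123 with trend and robust variances and 6100 by the methods' t-test. Without dim probe sets they were 4841 of the 18620 kept. With 1 array left out they lay between 5881 and 10324, the latter without AC replicate 1. The choice of members used this comparison, so nothing is read from the member counts. The share of calls that were higher in DFAT cells was 52.9% as deposited, 63% with centring on the array median, 22.7% on reference genes and 78.5% on hybridization controls. The cause of these shifts was not tested.

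Among genes at background on all arrays, Ankrd2 (-0.03) was 0.084 after a second quantile normalization, 0.10 with median centring, 0.43 with hybridization controls and between -0.15 and 0.17 with 1 array left out. Ccn6 (-0.29) was 0.18 with hybridization controls. Vgll1 (0.04) was -0.34 with reference genes, -0.020 with the floor and between -0.036 and 0.14 with 1 array left out, and Vgll2 (0.14) was -0.24 with reference genes and -0.020 with the floor.

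Samples with the same replicate number did not deviate together (correlations of -0.016, -0.027 and 0.013), so the numbers were not taken to pair them. With the replicate number as a block, 8639 probe sets were higher and 7384 lower in DFAT cells, 12 Hippo pathway genes were higher and 7 lower, and 24 further target genes were higher and 8 lower.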
